A study of Mus musculus with 8 samples.

Results

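The enzymes and cofactors that write, keep, remove and protect DNA methylation were followed through 4 mouse cell states by RNA-seq. The 10 genes were chosen by name: Dnmt1 and Uhrf1 (maintenance), Dnmt3a, Dnmt3b and Dnmt3l (de novo methylation), Tet1, Tet2 and Tet3 (oxidation of methylcytosine), and Zfp57 and Trim28 (protection of imprinted methylation). They are 10 of the 48440 genes and 92 of the 117667 transcripts in the deposited tables. There were 2 libraries of each state, and the labels do not say whether the 2 came from separate animals or cultures, so the p-values measure the spread between these libraries, which may be technical.

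GV oocytes, fully grown and still holding an intact germinal vesicle, came from mice primed with 5 units of PMSG 48 h earlier and were collected with 2 µM milrinone, which holds meiosis. MII oocytes are ovulated eggs halted in the second meiotic division, but the collection text on their records repeats that of the GV oocytes. The embryonic stem cells (ESC) grew in 15% fetal bovine serum with Lif and 2i (PD0325901 and CHIR99021). In vitro epiblast cells (EpiC) were made from ESC plated for 24 h, then freed of LIF and 2i and harvested about 56 h later. Strain, animal age and the name of the ESC line are not stated in the labels.

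In mammals, DNMT1 copies CpG methylation onto new DNA strands after UHRF1 has bound the half-methylated site. DNMT3A and DNMT3B methylate unmethylated DNA, and DNMT3L, which has no catalytic activity of its own, stimulates them and is required for imprints in the oocyte. TET1, TET2 and TET3 oxidise 5-methylcytosine, and TET3 is the form carried by the egg into the zygote. ZFP57, a KRAB zinc finger protein, binds methylated imprinting control regions and recruits TRIM28 (KAP1), which brings in silencing and methylation enzymes.

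Several of these genes are known to use different start sites in germ cells and in other cells, and the annotated starts separate the oocyte libraries from the cultured cells below. For Dnmt3l and Dnmt1, the sequence around the start that took most of the TPM in oocytes is shown beside that of a start used in cultured cells. Each run is RefSeq sequence of GRCm38.p6, with 220 bases before the start in lower case and the first 30 transcribed bases in capitals. The Dnmt3l oocyte start is at chr10:78042067-78042316 (plus strand, transcript Dnmt3l-001) and the cultured-cell start at chr10:78049622-78049871 (plus strand, Dnmt3l-003). Dnmt3l-003 held 19.9 to 46.7% of Dnmt3l TPM in the cultured libraries, and Dnmt3l-002, which starts a short way downstream at position 78049959 and is not shown, held 51.3 to 72.7%. The Dnmt1 upstream start is at chr9:20959859-20960108 (minus strand, Dnmt1-202) and the downstream start at chr9:20952950-20953199 (minus strand, Dnmt1-201).
Dnmt3l oocyte start: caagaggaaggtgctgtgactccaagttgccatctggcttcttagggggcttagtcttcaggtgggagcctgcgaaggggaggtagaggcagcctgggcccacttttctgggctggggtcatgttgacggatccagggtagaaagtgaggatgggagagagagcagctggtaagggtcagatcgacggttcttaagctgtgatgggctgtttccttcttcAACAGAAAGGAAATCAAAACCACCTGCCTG
Dnmt3l cultured-cell start: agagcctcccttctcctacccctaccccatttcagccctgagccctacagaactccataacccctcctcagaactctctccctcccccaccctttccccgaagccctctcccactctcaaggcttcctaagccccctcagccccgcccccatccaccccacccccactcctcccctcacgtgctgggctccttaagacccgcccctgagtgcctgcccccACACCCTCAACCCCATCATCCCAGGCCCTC
Dnmt1 upstream start: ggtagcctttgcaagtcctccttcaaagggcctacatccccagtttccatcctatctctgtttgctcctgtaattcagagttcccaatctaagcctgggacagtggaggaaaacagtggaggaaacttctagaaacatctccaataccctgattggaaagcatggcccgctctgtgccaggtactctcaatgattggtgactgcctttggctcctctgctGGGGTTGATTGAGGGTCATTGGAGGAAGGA
Dnmt1 downstream start: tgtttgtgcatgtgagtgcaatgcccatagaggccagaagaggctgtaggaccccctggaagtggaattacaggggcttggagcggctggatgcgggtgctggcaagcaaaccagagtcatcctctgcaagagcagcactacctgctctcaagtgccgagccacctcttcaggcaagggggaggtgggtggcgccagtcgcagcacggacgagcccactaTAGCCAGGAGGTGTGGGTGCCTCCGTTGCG

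For Dnmt1, Dnmt3a and Tet3 the start also sets where the annotated coding sequence begins. The first 60 coding bases from GENCODE M21 are shown with the start codon in capitals, because they tell the forms apart.
Dnmt1-201: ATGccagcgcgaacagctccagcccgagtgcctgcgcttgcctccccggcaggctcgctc
Dnmt1-202: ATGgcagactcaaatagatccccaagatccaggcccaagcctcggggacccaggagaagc
Dnmt3a-006: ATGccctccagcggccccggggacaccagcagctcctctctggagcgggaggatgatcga
Dnmt3a-005: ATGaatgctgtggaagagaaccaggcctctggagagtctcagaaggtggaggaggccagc
Tet3-003: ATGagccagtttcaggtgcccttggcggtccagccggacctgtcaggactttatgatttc
Tet3-001: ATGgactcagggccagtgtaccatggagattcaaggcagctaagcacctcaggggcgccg
Tet3-004: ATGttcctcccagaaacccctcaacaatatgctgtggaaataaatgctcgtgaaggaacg
Dnmt1-202 opens 118 codons into the reading frame of Dnmt1-201. Dnmt3a-005 opens 219 codons into that of Dnmt3a-006 and is identical to it from there on. Tet3-001 opens 135 codons into that of Tet3-003 and matches the rest. Tet3-004 is an annotated fragment of 469 bases with its own upstream first codons, and the start codon of Tet3-001 lies 45 codons after its own. The 3 full-length Dnmt3l transcripts with a coding sequence, Dnmt3l-001, -002 and -003, share the same 1263 coding bases, so there the start changes the untranslated leader and not the annotated protein.

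The libraries held between 47463546 (EpiC replicate 1) and 196788239 (MII replicate 2) estimated counts. The summed level of 10 oocyte marker genes was 25469 to 35999 TPM (a level per transcript length, scaled to library depth) in the 4 oocyte libraries and 2.22 to 11.3 TPM in the cultured cells. Naive pluripotency markers summed to 2368 and 1836 TPM in ESC and to 335 and 171 TPM in EpiC, and the 4 formative epiblast markers to 162 and 80.9 TPM in EpiC against 12.8 and 8.18 TPM in ESC. These markers separate oocytes from cultured cells and ESC from EpiC. The lists were not made to tell GV from MII, so they do not check the MII label. GV replicate 2 carried 143 TPM of 10 cumulus and granulosa markers against 30.8 TPM in GV replicate 1, with Inha at 104.5 and 4.66 TPM. The MII libraries carried 51.0 and 48.2 TPM of these markers. Most of that was Cyp19a1, at 47.4 and 44.5 TPM in MII against 23.4 and 18.3 TPM in GV. The part of these markers in the GV and MII results was not tested. The transcript Gm42418 took 14.7% of counts in ESC replicate 2 and 22.7% in EpiC replicate 2 against at most 3.03% elsewhere. In bulk libraries, less RNA of a gene per cell cannot be told apart from fewer cells that carry it.

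Fold changes below are log2 values with standard errors from edgeR's quasi-likelihood test on estimated counts scaled by TMM, and a gene was called at a Benjamini-Hochberg adjusted p under 0.05 over 25045 genes. Scaling matters for MII, whose TMM factors were 0.4217 and 0.4048 against 1.075 to 1.576 in the other libraries. On the log2(TPM + 1) scale the median gene with at least 10 TPM lay 1.10 lower in MII against GV and 1.35 lower in MII against EpiC than on the TMM scale, and 0.32 lower in GV against ESC (shifts of -1.10, -1.35 and -0.32). Both scales are given where they part in the call or direction of one of the 10 genes.

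From GV to MII, Tet3, Tet2, Dnmt3b and Trim28 rose and Dnmt3l and Zfp57 fell on the TMM scale. That is 4 of 10 genes higher, where 17.4% of all genes tested were higher, and 2 of 10 lower, where 22.2% were. With limma on log2(TPM + 1) the count was 1 higher (Tet3) and 5 lower (Dnmt1, Dnmt3a, Dnmt3l, Tet1 and Zfp57). On that scale 2413 of all 25045 genes were higher and 8162 lower. From ESC to EpiC, 1 gene rose (Dnmt3a; 2.63% of all genes rose) and 2 fell (Tet2 and Zfp57; 2.83% fell). The GV oocyte held more Dnmt1, Dnmt3a, Tet3 and Zfp57 than ESC (4 of 10, background 28.3%) and less Dnmt3b, Tet1, Tet2 and Trim28 (4 of 10, background 31.3%). The MII oocyte held more Dnmt1, Uhrf1, Tet3 and Zfp57 than EpiC (4 of 10, background 28.5%) and less Dnmt3b, Dnmt3l, Tet1 and Tet2 (4 of 10, background 39.6%). The comparisons of MII with GV and of GV with ESC share the GV libraries, and the others share libraries in the same way, so they are not independent of each other. GV to ESC and MII to EpiC also differ in cell type, culture and RNA content at once.

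**Figure D1:**
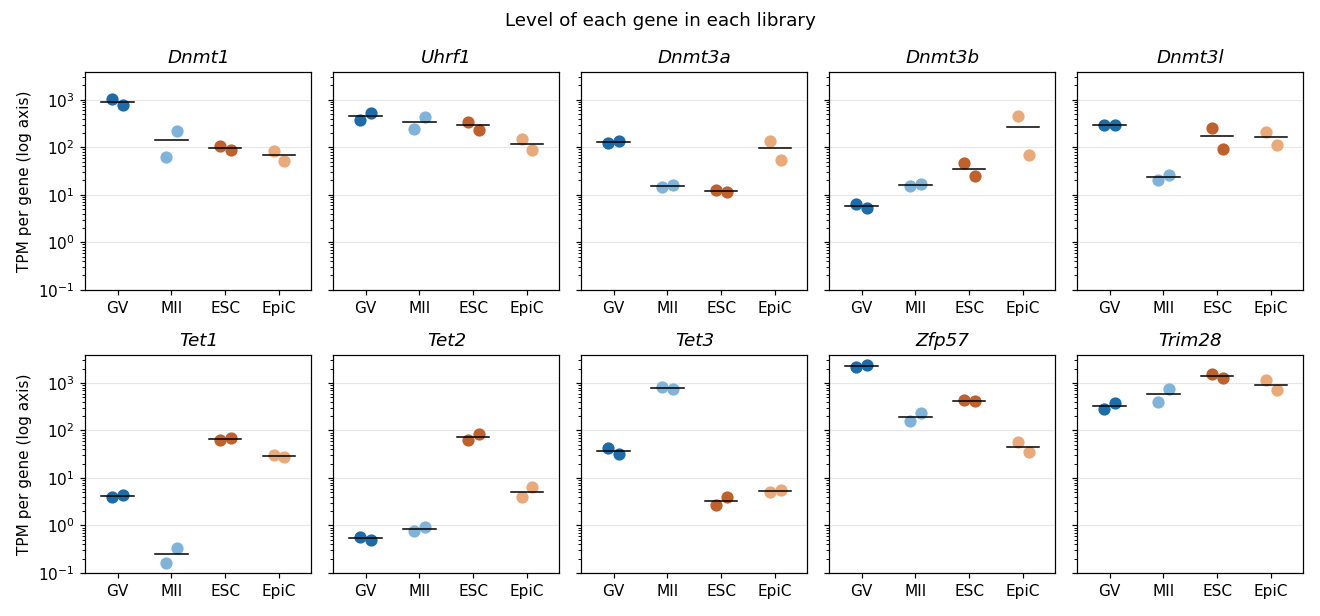
Level of each gene (TPM, log axis) in the 8 libraries, 2 points per state with the mean as a bar. Tet3 in MII stands at 823 and 761 TPM against 43.6 or less in the other 6 libraries, and Tet2 stands above 60 TPM in ESC alone.

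Dnmt1, which encodes the maintenance methyltransferase, had its highest RNA level in GV oocytes. Dnmt1 read 1037 and 777 TPM in GV, 63.4 and 219.6 TPM in MII, 107 and 85.4 TPM in ESC, and 83.5 and 51.1 TPM in EpiC. The GV libraries lie above all the others, while MII overlaps ESC and EpiC and its 2 libraries differ by a larger ratio than those of any other state. Dnmt1 was 3.53 ± 0.60 (log2, SE) higher in GV than in ESC (adjusted p = 0.00101, edgeR). From GV to MII the change was -1.48 ± 0.56, just short of the threshold (adjusted p = 0.0597). It passed in DESeq2 (-1.32, adjusted p = 0.0494), with limma on log2(TPM + 1) (-2.92, adjusted p = 0.00700), and without MII replicate 2 (-2.72, adjusted p = 0.0073). MII against EpiC gave 2.56 ± 0.58 (adjusted p = 0.00359), but on log2(TPM + 1) it was 0.85 and not called (adjusted p = 0.243).

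Uhrf1, whose protein brings DNMT1 to half-methylated DNA, had a high RNA level in every state. Uhrf1 read 374 and 515 TPM in GV, 237 and 437 TPM in MII, 345 and 231 TPM in ESC, and 152 and 85.6 TPM in EpiC. The GV and MII libraries overlap, and the EpiC libraries are the lowest 2. No change passed from GV to MII, and its sign depended on the scale: 0.73 ± 0.44 with TMM (adjusted p = 0.224) and -0.45 with log2(TPM + 1). Between ESC and EpiC the estimate was -1.31 ± 0.45 (adjusted p = 0.147). Uhrf1 was 3.03 ± 0.48 higher in MII than in EpiC (adjusted p = 0.000478). Dnmt1 exceeded Uhrf1 per length in GV, at 2.77 and 1.51 times its TPM, and lay below it in the other 6 libraries, at 0.268 to 0.597 times.

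RNA of Dnmt3a, which encodes the main de novo enzyme of the oocyte, was high in GV and EpiC. Dnmt3a read 125 and 136 TPM in GV, 14.2 and 16.1 TPM in MII, 12.9 and 11.3 TPM in ESC, and 134 and 53.9 TPM in EpiC. It rose from ESC to EpiC by 2.50 ± 0.41 (adjusted p = 0.00966), with no overlap, and was higher in GV than in ESC by 3.18 ± 0.42 (adjusted p = 0.000250). The EpiC rise missed the threshold without ESC replicate 1 (2.56, adjusted p = 0.0856), without ESC replicate 2 (2.43, adjusted p = 0.0675) and when the ESC and EpiC libraries were fitted alone (2.52, adjusted p = 0.0579). From GV to MII the counts gave only -0.46 ± 0.39 (adjusted p = 0.382), although TPM was lower in both MII libraries. With an offset for mean transcript length the fall was -1.94 (adjusted p = 0.00433), and with limma on log2(TPM + 1) it was -3.03 (adjusted p = 0.00123). MII against EpiC likewise went from 0.23 ± 0.39 (adjusted p = 0.606) with TMM to -1.14 with the length offset and -2.42 on log2(TPM + 1) (adjusted p = 0.00201).

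Dnmt3a also switched transcripts between GV and MII (transcript usage, adjusted p = 0.000938, edgeR). Of its 18 transcripts, 3 (Dnmt3a-001, Dnmt3a-006 and Dnmt3a-201) reach the last 1000 bases of the annotated gene, and 15 end earlier. The 3 distal transcripts held 13.7 and 9.11% of Dnmt3a TPM in GV and 82.9 and 80.9% in MII. Their share was 27.3 and 28.3% in ESC and 14.8 and 15.7% in EpiC. In TPM the distal class was 17.2 and 12.4 in GV and 11.8 and 13.04 in MII, with overlap. The early-ending class went from 108 and 123 in GV to 2.43 and 3.07 in MII. On log2(TPM + 1) the median gene with at least 10 TPM was shifted by -1.10 in MII against GV, relative to TMM. The classes were not scaled by TMM, so the overlap of the distal class holds for TPM alone. Dnmt3a-005, the short coding form from the internal start, read 64.2 and 64.5 TPM in GV, 0.00329 and 1.91 TPM in MII, 80.2 and 18.5 TPM in EpiC. Dnmt3a-016, a fragment of 501 bases, read 34.8 and 40.4 TPM in GV and was at 0 in both MII libraries, at least 270-fold lower against a floor of 3 counts per library. Dnmt3a-201, which starts within 16 bases of Dnmt3a-005 and codes for the same 2067 bases but extends to the distal end, was at 2.24 and 3.39 TPM in MII and at 0 in the other 6 libraries. It was at least 369-fold higher in MII than in GV. The split by 3′ end was chosen after these values were seen and is a description.

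**Figure D2:**
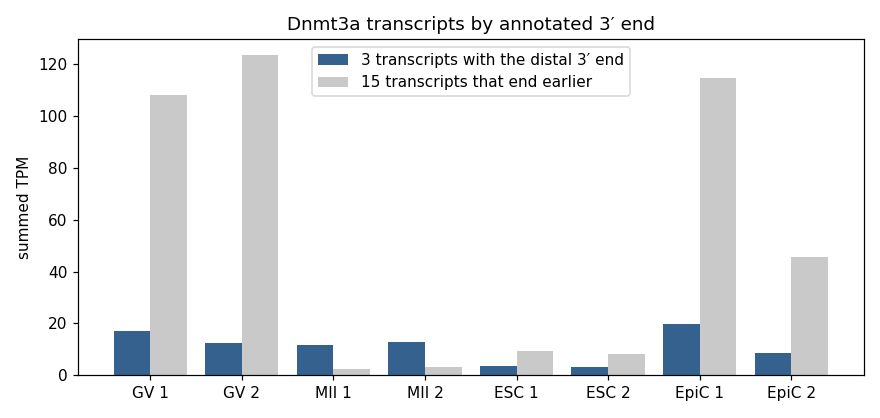
Summed TPM of Dnmt3a transcripts in the 8 libraries, split by annotated 3′ end into 3 that reach the last 1000 bases of the gene and 15 that end earlier. The early-ending class is at 2.43 and 3.07 TPM in MII against 108 and 123 TPM in GV, while the distal class is at 11.8 and 13.04 against 17.2 and 12.4 TPM.

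RNA of Dnmt3b, which encodes the de novo enzyme of the early embryo, had its highest level in EpiC. Dnmt3b read 6.35 and 5.34 TPM in GV, 15.2 and 16.9 TPM in MII, 46.3 and 24.9 TPM in ESC, and 458 and 67.3 TPM in EpiC. In TPM the states do not overlap, but the 2 EpiC libraries lie far apart. In TMM-scaled CPM (counts scaled to library depth) MII, at 75.3 and 86.5, overlapped ESC, at 81.9 and 44.5. EpiC replicate 1 also had more of the formative markers Fgf5 (55.3 against 18.9 TPM) and Otx2 (60.6 against 15.6 TPM) than EpiC replicate 2. Fst was close, at 13.2 against 10.9 TPM, and Pou3f1 went the other way, at 32.7 against 35.5 TPM. The part of these marker differences in the Dnmt3b difference was not tested. The change from ESC to EpiC, 2.86 ± 0.71, missed the threshold in edgeR (adjusted p = 0.0523) and passed in DESeq2 (adjusted p = 0.00209). It was 1.09 without EpiC replicate 1, and 3.63 with adjusted p = 0.00563 without EpiC replicate 2. Dnmt3b was lower in GV than in ESC by 2.31 (-2.31 ± 0.70, adjusted p = 0.0184), a call that was lost without GV replicate 1 (-2.11, adjusted p = 0.11), without GV replicate 2 (-2.24, adjusted p = 0.0973) or without ESC replicate 1 (-1.80, adjusted p = 0.0786). Its rise from GV to MII (2.66 ± 0.71, adjusted p = 0.0148) was 1.32 and not called on log2(TPM + 1) (adjusted p = 0.274). Dnmt3b was lower in MII than in EpiC (-2.50 ± 0.70, adjusted p = 0.0114), and this estimate was -0.73 and not called without EpiC replicate 1 (adjusted p = 0.184).

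RNA of Dnmt3l, which encodes the cofactor of de novo methylation, was abundant in GV, ESC and EpiC and scarce in MII. Dnmt3l read 293 and 291 TPM in GV, 20.01 and 26.5 TPM in MII, 251 and 91.7 TPM in ESC, and 213 and 109 TPM in EpiC. The MII libraries lie below all others, and ESC and EpiC overlap. It fell from GV to MII by 2.49 (-2.49 ± 0.52, adjusted p = 0.00427). GV and ESC differed by 0.77 ± 0.49, which did not pass (adjusted p = 0.195), and ESC and EpiC by -0.09 ± 0.49 (adjusted p = 1), a value whose sign turned on the TPM scale (0.0061), without ESC replicate 1 (0.77) and without EpiC replicate 2 (0.20). MII was lower than EpiC (-1.63 ± 0.50, adjusted p = 0.0171), a call lost without MII replicate 1 (-1.34, adjusted p = 0.11) or EpiC replicate 1 (-1.26, adjusted p = 0.0754).

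Together, the DNMT3 genes summed to 425 and 432 TPM in GV, 49.5 and 59.6 TPM in MII, 310.3 and 128 TPM in ESC, and 805 and 230.3 TPM in EpiC. The composition of this sum differed between states. In GV, Dnmt3a and Dnmt3l made up nearly all of it and Dnmt3b 1.496 and 1.24%. The Dnmt3b share was 30.8 and 28.4% for MII, 14.9 and 19.4% for ESC, and 56.9 and 29.2% for EpiC. Dnmt3a exceeded Dnmt3b by 19.7 and 25.4 times per length in GV and was below it in the other 6 libraries, at 0.278 to 0.951 times.

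**Figure D3:**
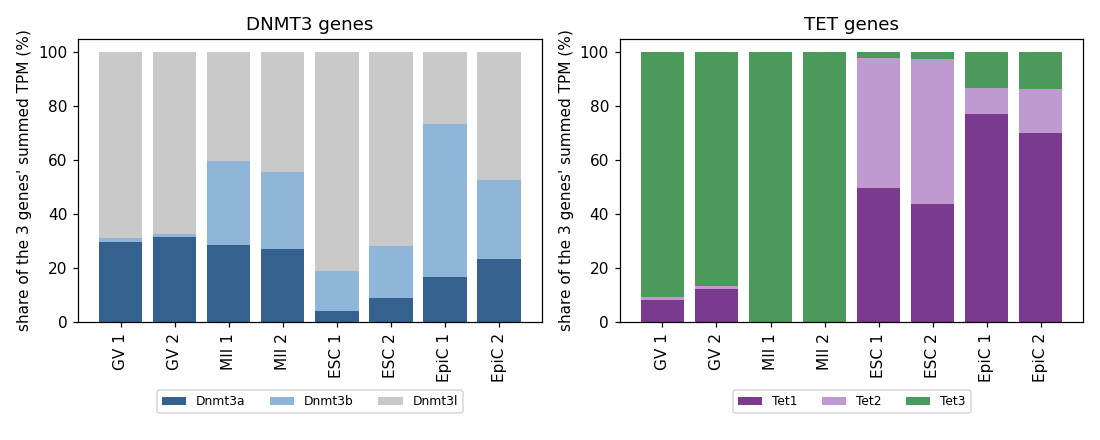
Share (%) of each gene in the summed TPM of the DNMT3 genes (left) and the TET genes (right) in the 8 libraries. Dnmt3b takes 1.496 and 1.24% of the DNMT3 sum in GV, and Tet3 takes 99.9 and 99.8% of the TET sum in MII.

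Among the TET genes, Tet3 was higher in oocytes than in cultured cells, and Tet1 and Tet2 were lower. Tet3, which encodes the maternal dioxygenase, read 43.6 and 31.6 TPM in GV and 823 and 761 TPM in MII. It read 2.71 and 3.91 TPM in ESC, and 5.16 and 5.50 TPM in EpiC. No oocyte library overlaps a cultured one. Tet3 rose from GV to MII by 5.52 ± 0.45 (adjusted p = 0.000518), the largest change of the 10 genes in that comparison, and by 21.1-fold in mean TPM. On log2(TPM + 1) with limma it rose as well. It was 3.56 ± 0.41 higher in GV than in ESC (adjusted p = 0.000125) and 8.37 ± 0.51 higher in MII than in EpiC (adjusted p = 5.38e-06). Between ESC and EpiC its estimate was 0.72 ± 0.38 (adjusted p = 0.392). All these Tet3 calls held when each library was left out in turn.

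Tet1 and Tet2, which encode the forms of pluripotent cells, both had their highest RNA level in ESC. Tet1 read 3.95 and 4.43 TPM in GV, 0.158 and 0.334 TPM in MII, 63.98 and 67.8 TPM in ESC, and 30.4 and 28.2 TPM in EpiC. Tet2 read 0.582 and 0.489 TPM in GV, 0.767 and 0.906 TPM in MII, 61.8 and 82.9 TPM in ESC, and 3.89 and 6.44 TPM in EpiC. For both genes the 4 states do not overlap, and per length the order was ESC, EpiC, GV and MII for Tet1 and ESC, EpiC, MII and GV for Tet2. Tet2 fell from ESC to EpiC by 3.86 (-3.86 ± 0.41, adjusted p = 0.00217). Tet1 showed -1.40 ± 0.36, just short of the threshold (adjusted p = 0.0549), and it was called by DESeq2 (-1.39, adjusted p = 0.00334) and by limma on log2(TPM + 1) (-1.14, adjusted p = 0.0187). GV held less of both than ESC, by -6.60 ± 0.45 for Tet1 (adjusted p = 9.62e-06) and -7.80 ± 0.50 for Tet2 (adjusted p = 7.96e-06). Tet2's rise from GV to MII on the TMM scale (2.78 ± 0.40, adjusted p = 0.000812) starts from under 1 TPM and was 0.26 on log2(TPM + 1) (adjusted p = 0.621). Tet1 from GV to MII was -0.79 ± 0.36 with TMM (adjusted p = 0.111), -2.89 with the length offset (adjusted p = 0.00107) and -2.06 on log2(TPM + 1) (adjusted p = 0.000376). Against EpiC, MII was lower in Tet1 (-5.99 ± 0.44, adjusted p = 9.13e-06) and in Tet2 (-1.17 ± 0.38, adjusted p = 0.0214), the latter lost without either MII library or EpiC replicate 2 (adjusted p = 0.0659, 0.092 and 0.178).

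Tet1-001, the longest Tet1 transcript at 14369 bases, read 52.7 and 46.0 TPM in ESC and 20.96 and 16.1 TPM in EpiC, but 0 and 0.0753 TPM in GV and 0 and 0.0229 TPM in MII. In GV, 95.0 and 97.2% of Tet1 TPM was assigned to 3 short transcripts from 1 start near the 3′ end of the gene, against 15.7 and 21.2% in ESC. In MII these held 50.5 and 62.1%, and Tet1-201, a transcript of 13986 bases with 6021 coding bases, held 49.5 and 31.1% (45.9 and 164 estimated counts). The edgeR test of transcript usage did not call Tet1 in any of the 4 comparisons. In the summed TET level, Tet3 held 90.6 and 86.6% in GV and 99.9 and 99.8% in MII. Its share was 2.11 and 2.53% in ESC and 13.1 and 13.7% in EpiC. ESC divided their TET RNA almost evenly between Tet1 (49.8 and 43.9%) and Tet2 (48.1 and 53.6%), and in EpiC Tet1 held 77.1 and 70.2%.

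Zfp57, whose protein keeps imprints methylated, had its highest RNA level in GV and its lowest in EpiC. Zfp57 read 2191 and 2388 TPM in GV, 159 and 228 TPM in MII, 436 and 417 TPM in ESC, and 56.4 and 35.2 TPM in EpiC. The 4 states do not overlap and order as GV, ESC, MII and EpiC per length. Zfp57 fell from GV to MII by 2.38 (-2.38 ± 0.38, adjusted p = 0.00116) and from ESC to EpiC by 3.22 (-3.22 ± 0.39, adjusted p = 0.00304). GV exceeded ESC by 2.82 ± 0.38 (adjusted p = 0.000287), and MII exceeded EpiC by 3.66 ± 0.40 (adjusted p = 5.71e-05). Zfp57 was called in all 4 comparisons, and each call held with every library left out in turn and on the TPM scales.

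RNA of Trim28, which encodes the corepressor that ZFP57 recruits, was lower in GV than in ESC. On the TMM scale it rose from GV to MII, where Zfp57 went the other way. Trim28 read 281 and 372 TPM in GV, 406 and 739 TPM in MII, 1547 and 1254 TPM in ESC, and 1155 and 697 TPM in EpiC. GV was lower than ESC by 1.75 (-1.75 ± 0.46, adjusted p = 0.0102), a call lost without GV replicate 1 (-1.18, adjusted p = 0.111). The rise from GV to MII (2.01 ± 0.47, adjusted p = 0.00796) was 0.76 on log2(TPM + 1) (adjusted p = 0.269), and was lost without GV replicate 1 (1.62, adjusted p = 0.0609) or MII replicate 2 (1.48, adjusted p = 0.0678). Neither ESC to EpiC (-0.54 ± 0.45, adjusted p = 0.701) nor MII to EpiC passed, and the latter turned from 0.80 ± 0.45 (adjusted p = 0.142) with TMM to -0.71 on log2(TPM + 1). Per length, Trim28 stood at 0.128 and 0.156 times Zfp57 in GV and 2.55 and 3.24 times in MII. The ratio was 3.55 and 3.005 times in ESC, and 20.5 and 19.8 times in EpiC. The single annotated coding transcript, Trim28-001, held 31.0 to 45.0% of Trim28 TPM in every library, and 8 retained-intron transcripts held 32.5 to 47.1%. Trim28 overlaps Zbtb45 on the other strand over 6137 bases, but the named Trim28 transcripts share 0 exon bases with it. The library kit was stranded, but the sources used here do not say whether the quantification used strand.

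**Figure D4:**
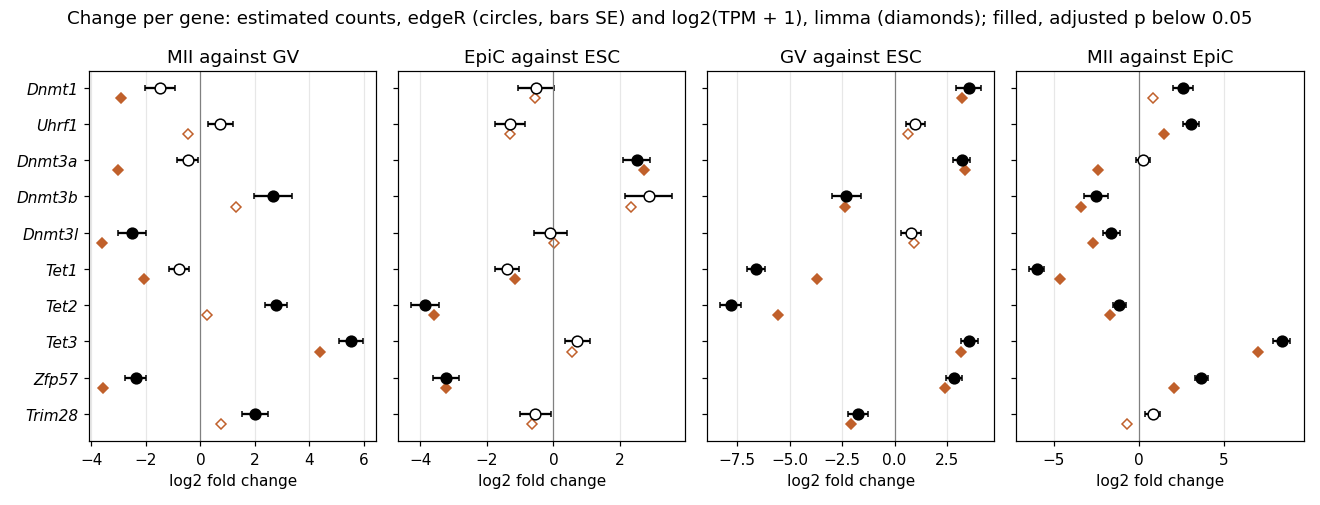
Log2 fold change of each gene in 4 comparisons, from estimated counts with edgeR (circles, bars show SE) and from log2(TPM + 1) with limma (diamonds), filled where the adjusted p is below 0.05. In MII against GV every diamond lies left of its circle, and Uhrf1 changes sign from 0.73 to -0.45.

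Transcript usage, tested as the change of each transcript against the rest of its gene (edgeR diffSpliceDGE, Simes p adjusted over 11953 genes), was called for most of the 10 genes between oocytes and cultured cells. On simulated data this test recovered few changes and made more false calls than its threshold implies. GV against ESC called 7 of 10 genes (Dnmt1, Dnmt3a, Dnmt3l, Uhrf1, Tet3, Zfp57 and Trim28), where 24.6% of all genes were called. For Dnmt3a only Dnmt3a-008 passed on its own, with 62.7 and 37.7 estimated counts in ESC and 0 in both GV libraries. For Trim28 only Trim28-007 did, a retained-intron transcript at 1.31 and 3.48% of Trim28 TPM in ESC and 0 in GV. MII against EpiC called 8 of 10, all but Dnmt3b and Tet1, against 30% of all genes. Between GV and MII, 3 of 10 were called (Dnmt3a, Uhrf1 and Tet2, background 5.52%). The Tet2 call rested on Tet2-001, which had 0 and 49.2 estimated counts in GV and 0 in both MII libraries. The Uhrf1 call rested on Uhrf1-002, which held 1.27 and 0.318% of Uhrf1 TPM in GV. Between ESC and EpiC 0 of 10 were called (background 0.092%). From ESC to EpiC no member had a Simes p under 0.05 except Dnmt3a, at 0.0141 unadjusted. There limma's diffSplice on log2(TPM + 1) called 4 of the 10 and 679 of all 11953 genes. Without GV replicate 2, only Uhrf1 was called between GV and MII, with Dnmt3a at adjusted p = 0.0557 and Tet2 at 0.388. Without GV replicate 1 the GV against ESC count was 3, and without ESC replicate 2 it was 4. Transcripts of a gene share most of their sequence, so their TPM are estimates of how shared reads divide.

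Dnmt3l used separate start groups in oocytes and in cultured cells. The 2 transcripts of the upstream start group, Dnmt3l-001 and Dnmt3l-007, held 99.98% or more of Dnmt3l TPM in all 4 oocyte libraries, against 0.535 and 0.278% in ESC and 0.0520 and 0.0442% in EpiC. Dnmt3l-002 and Dnmt3l-003 held 98.0 and 91.7% in ESC and 98.4 and 92.6% in EpiC and had 0 counts in every oocyte library. Against a floor of 3 counts per library, Dnmt3l-002 was at least 3315-fold lower in GV than in ESC and Dnmt3l-003 at least 2914-fold lower. Against the rest of the gene, Dnmt3l-001 was 6.07 higher in GV than in ESC (log2, adjusted p = 2.92e-05, edgeR) and 7.55 higher in MII than in EpiC (adjusted p = 4.14e-06). The total level of Dnmt3l in GV and in ESC therefore came from separate starts. In GV, 35.5 and 26.7% of it (104 and 77.6 TPM, 399 and 821 estimated counts) was assigned to Dnmt3l-007, a processed transcript of 210 bases with no annotated coding sequence, and in MII 35.6 and 28.9%. The other 64.5 and 73.3% in GV was Dnmt3l-001, with the coding sequence of Dnmt3l-002 and Dnmt3l-003. Aire, on the other strand, overlaps the upstream starts of Dnmt3l over 1664 bases. Its annotated exons share 67 bases with Dnmt3l-007 and 0 with Dnmt3l-001, -002 or -003. Aire itself read 15.6 and 22.4 TPM in GV and 1.86 and 2.21 TPM in MII. In cultured cells it read 48.1 and 12.3 TPM in ESC, and 7.53 and 3.67 TPM in EpiC. The part of Aire reads in the upstream Dnmt3l level was not tested.

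For Dnmt1, the upstream start (Dnmt1-202, coding sequence of 4503 bases) held 82.5 and 82.1% in GV and 78.4 and 81.0% in MII. Cultured cells gave it less, 30.01 and 32.8% in ESC, and 30.9 and 35.4% in EpiC. Dnmt1-201, with 4860 coding bases, held most of the rest. The gene-level call in GV against ESC (adjusted p = 0.00862) rested on the minor transcript Dnmt1-203 (-4.13, adjusted p = 0.00838), which held at most 2.04% in any library. Neither Dnmt1-201 nor Dnmt1-202 passed on its own, and the gene-level call was lost without either GV library (adjusted p = 0.137 and 0.134). In MII against EpiC the Dnmt1 call (adjusted p = 0.0352) was lost with any 1 of the 8 libraries left out (adjusted p from 0.0601 to 0.303). Dnmt1-202 read 855 and 638 TPM in GV and 49.7 and 178 TPM in MII.

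Tet3-004, the fragment that marks the most upstream Tet3 start, held 26.7 to 29.7% of Tet3 TPM in oocytes and was at 0 in all 4 cultured libraries. It was at least 59.2-fold higher in GV than in ESC and at least 1154-fold higher in MII than in EpiC. Tet3-003, whose coding sequence is the longest, held 1.42 to 4.77% in oocytes and 26.1 to 31.9% in cultured cells (-2.33 against the rest of the gene in GV against ESC, adjusted p = 0.00984). Tet3-001 and the 2 transcripts that start beside it held 66.9 to 73.9% everywhere. Between GV and MII, edgeR called no change of Tet3 transcript usage (adjusted p = 1). There limma's diffSplice on log2(TPM + 1) did (adjusted p = 5.32e-12), as for 4809 of 11953 genes. The shares in GV and MII were 26.9 and 27.2% against 29.7 and 26.7% for Tet3-004. They were 1.42 and 3.41% against 3.43 and 4.77% for Tet3-003, and 71.7 and 69.4% against 66.9 and 68.5% for the Tet3-001 start group. Why these tests part was not tested.

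Zfp57 and Uhrf1 also split by start. In Zfp57, 1 start group (8 transcripts, mainly Zfp57-002) held 96.0 to 97.7% in oocytes and 46.0 to 49.8% in cultured cells, where Zfp57-003 and Zfp57-004, which code for the same 1263 bases from later starts, each held 19.8 to 22.8%. Zfp57-004 was lower against the rest of its gene by -4.91 in GV against ESC (adjusted p = 4.36e-07). In Uhrf1, the second start group (Uhrf1-003, -004 and -005) held 79.0 to 86.4% in oocytes, 30.1 and 32.3% in ESC, and 37.1 and 45.1% in EpiC. Uhrf1-002, from the first start, read 83.9 and 49.5 TPM in ESC, 27.9 and 12.8 TPM in EpiC, 4.74 and 1.64 TPM in GV, and 0.000518 and 0.00140 TPM in MII, under 1 estimated count in each. Its change between GV and MII (-6.99, adjusted p = 0.000149) carried the Uhrf1 call there. The Uhrf1 call in GV against ESC (adjusted p = 0.00349) was lost without GV replicate 1 (adjusted p = 0.0582) or GV replicate 2 (adjusted p = 0.18). Starts within 350 bases of each other were grouped, a distance set after the annotation and values were seen. Zfp57-003 starts at 37003038, just past the last start of the Zfp57-002 group at 37002670. A slightly wider distance would add its share to that group, so the size of the Zfp57 split depends on this choice.

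**Figure D5:**
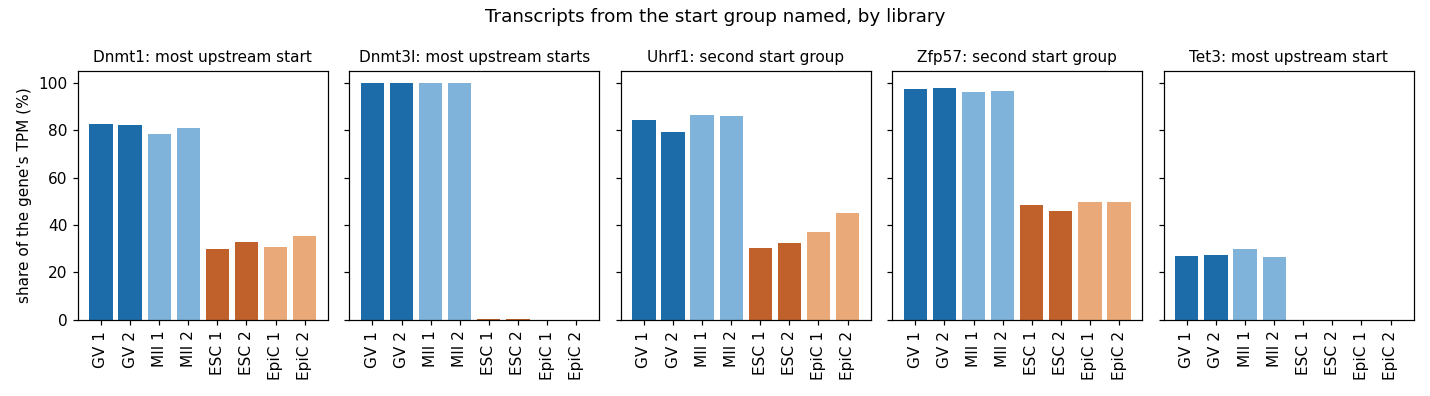
Share (%) of each gene's TPM assigned to transcripts of 1 start group, by library, for Dnmt1, Dnmt3l, Uhrf1, Zfp57 and Tet3. In all 5 panels each oocyte library lies above each cultured library, from 26.7 to 29.7% against 0% for Tet3 to at least 99.98% against at most 0.535% for Dnmt3l.

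The promoters of these starts differed in CpG content. All 10 genes matched RefSeq windows of 300 bases (250 before and 50 after the start), 19 windows among 32851, whose median was 7 CpG. The Dnmt1 window of the upstream start held 2 CpG (14.1th percentile), against 12 at the start of Dnmt1-201 and 33 at that of Dnmt1-203 (91.4th percentile). The Dnmt3l windows held 6 CpG at the oocyte start and 4 at the cultured-cell start. The Uhrf1 windows held 33 CpG at the start favoured in oocytes and 12 at the other, and those of Zfp57 held 9 at the start of Zfp57-002 and 4 at that of Zfp57-004. Among the windows compared, the start favoured in oocytes had fewer CpG at Dnmt1 and more at Dnmt3l, Uhrf1 and Zfp57. No window matched Tet3-004 or Dnmt3l-002, which held 51.3 to 72.7% of Dnmt3l TPM in cultured cells, so these starts were not compared. The start group of Zfp57-002 was the largest of Zfp57 in cultured cells too, at 46.0 to 49.8%. Tet2 had the most, 57 CpG (99.8th percentile). Searched on both strands, TATAAA occurred in 13.6% of all windows and in 1 member window (Zfp57, the start of Zfp57-001). GGGCGG occurred in 35.7% of windows and in 13 of the 19 member windows, among them both Dnmt3l starts. TAATTG, the NOBOX element, occurred in 8.0% of windows and in no member window.

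Partners of the 10 genes were read from 5 lists, whose counts are to be read beside those of all genes. With edgeR, 17.4% of all genes rose and 22.2% fell from GV to MII, and 2.63 and 2.83% from ESC to EpiC. In GV against ESC 28.3% were higher and 31.3% lower, and in MII against EpiC 28.5 and 39.6%. With limma on log2(TPM + 1), of 25045 genes, 2413 rose and 8162 fell from GV to MII. On that scale GV against ESC gave 6890 higher and 8241 lower, and MII against EpiC 4725 and 11468. Of 18 regulators and relatives of the DNA methyltransferases found, 12 rose and 1 fell from GV to MII on the TMM scale (median 1.68, against -0.53 over all genes), and with log2(TPM + 1) 6 rose and 4 fell. Trdmt1, a tRNA methyltransferase of the same family, rose from 8.51 and 7.08 to 42.4 and 29.8 TPM (3.52 ± 0.47, adjusted p = 0.000664). Kdm1a, a histone demethylase, rose from 41.2 and 42.8 to 134 and 162 TPM (2.98 ± 0.41, adjusted p = 0.000695), and Lig1, the replicative DNA ligase, fell from 30.8 and 35.6 to 2.89 and 3.34 TPM (-2.27 ± 0.42, adjusted p = 0.00236). Between ESC and EpiC 1 of 18 rose, Cdca7l (1.77 ± 0.43, adjusted p = 0.0477, and 1.53 with adjusted p = 0.0582 on log2(TPM + 1)), and 1 fell, Prdm14, a repressor of the de novo enzymes in ESC, from 24.2 and 20.98 to 0.282 and 0.126 TPM (-6.84 ± 0.61, adjusted p = 0.00151). The Cdca7l call was lost without either GV, MII or ESC library or EpiC replicate 1, with adjusted p from 0.0620 (without MII replicate 2) to 0.305 (without ESC replicate 1), and its difference was 1.15 without EpiC replicate 1. Dppa3, which shields maternal methylation in the zygote, read 2435 and 2289 TPM in GV and 3204 and 2166 TPM in MII, against 6.42 to 18.1 TPM in cultured cells. In GV against ESC 3 of 18 were higher (Dppa3 by 8.43 ± 0.50, Kdm1b by 3.88 ± 0.46 and Cdca7l by 2.01 ± 0.43; adjusted p at most 0.00368) and 7 lower (3 and 8 on log2(TPM + 1)). MII against EpiC gave 10 higher and 4 lower, and 4 higher and 6 lower on log2(TPM + 1).

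Among 15 repair enzymes of active demethylation, 5 rose and 5 fell from GV to MII (17.4 and 22.2% of all genes). In GV against ESC 4 were higher and 7 lower (28.3 and 31.3%). MII against EpiC gave 4 higher and 5 lower (28.5 and 39.6%). On log2(TPM + 1) the counts were 1 and 6 from GV to MII, again 4 and 7 in GV against ESC, and 2 and 10 in MII against EpiC. RNA of Tdg, which encodes the glycosylase that removes the oxidised bases made by TET enzymes, was nearly missing in oocytes. Tdg read 0.217 and 2.19 TPM in GV and 0.0569 and 0.294 TPM in MII, against 35.6 to 91.4 TPM in cultured cells (GV against ESC -4.82 ± 0.93, adjusted p = 0.00199, edgeR). Protein was not measured for any gene. Neil3, another glycosylase, read 318 and 192 TPM in GV and 553 and 381 TPM in MII, against 3.87 to 8.45 TPM in cultured cells (5.68 ± 0.50 in GV against ESC, adjusted p = 3.15e-05). Smug1 was higher in GV than in ESC too (2.49 ± 0.37, adjusted p = 0.000471). Between ESC and EpiC edgeR called 0 of the 15 (3 at an unadjusted p under 0.05), DESeq2 1 higher and 1 lower, and limma on log2(TPM + 1) 1 higher.

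Of 8 methyl-CpG readers, 2 rose and 3 fell from GV to MII (17.4 and 22.2% of all genes). In GV against ESC 2 were lower (31.3%), and in MII against EpiC 1 was higher and 5 lower (28.5 and 39.6%). On log2(TPM + 1), 1 rose and 4 fell from GV to MII, 3 were lower in GV than in ESC, and 7 were lower in MII than in EpiC. Mbd1 fell from 11.5 and 12.4 to 0.140 and 0.423 TPM (-4.19 ± 0.59, adjusted p = 0.000768). Of 8 KRAB silencing partners, 2 rose and 2 fell from GV to MII, beside the same shares of all genes. In GV against ESC 1 was higher and 5 lower (28.3 and 31.3% of all genes). MII against EpiC gave 2 higher (Setdb1 and Smarcad1) and 4 lower (28.5 and 39.6%). On log2(TPM + 1), 1 rose and 4 fell from GV to MII, 1 was higher and 5 lower in GV than in ESC, and 6 were lower in MII than in EpiC. Cbx3 and Cbx5, which encode HP1 proteins, read 3.51 and 6.004 TPM and 20.99 and 14.9 TPM in GV, against 150.1 or more and 90.7 or more in ESC (-5.09 ± 0.65 and -3.64 ± 0.44, adjusted p = 0.000207 and 0.000164). Setdb1, the histone methyltransferase that TRIM28 recruits, was higher in GV than in ESC (1.15 ± 0.37, adjusted p = 0.0235, but 0.86 with adjusted p = 0.0855 on log2(TPM + 1)) and higher in MII than in EpiC on the TMM scale (1.09) but not on log2(TPM + 1), where the estimate turned to -0.29. Smarcad1, a chromatin remodeller, likewise went from 2.11 to -0.02 in MII against EpiC (adjusted p = 0.975 on log2(TPM + 1)). The first Setdb1 call was lost without ESC replicate 1 (1.36, adjusted p = 0.0502) or ESC replicate 2 (0.96, adjusted p = 0.149), and the second without MII replicate 2 (0.85, adjusted p = 0.132) or EpiC replicate 2 (0.84, adjusted p = 0.143). From ESC to EpiC edgeR called 0 readers (1 at an unadjusted p under 0.05) and 0 KRAB partners (0 at that level), while DESeq2 and limma each called 1 reader lower and 0 partners.

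Of 15 genes of S-adenosylmethionine and one-carbon supply, which feed the methyl donor, 6 rose and 6 fell from GV to MII (17.4 and 22.2% of all genes). From ESC to EpiC 1, Bhmt, fell (2.83%). GV against ESC gave 4 higher and 5 lower (28.3 and 31.3%), and MII against EpiC 4 higher and 10 lower (28.5 and 39.6%). On log2(TPM + 1) 2 rose and 7 fell from GV to MII, 3 were higher and 6 lower in GV than in ESC, and 3 higher and 10 lower in MII than in EpiC. The subunits of methionine adenosyltransferase II went in opposite directions in GV against ESC. Mat2b, the regulatory subunit, read 1199 and 1013 TPM in GV and 77.3 and 61.1 TPM in ESC (4.26 ± 0.43, adjusted p = 6.38e-05), and Mat2a, the catalytic one, 18.6 and 17.8 TPM in GV and 347 and 243 TPM in ESC (-3.70 ± 0.42, adjusted p = 0.000118). Over ESC and EpiC, across the 5 lists 1 gene rose and 2 fell, where 2.63% of all genes rose and 2.83% fell.

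Across the 8 libraries, the protein-coding genes whose log2(TPM + 1) was most like each member, among 12376 genes, were as follows, as Pearson r over libraries that share states and scaling. For Tet3 they were Spg20 (0.999), Lrp2bp (0.998) and Trappc10 (0.997), for Tet1 Ufd1l (0.999) and Ap4m1 (0.999), and for Tet2 AI467606 (0.999), Fam198b (0.996) and Adgre5 (0.996). For Dnmt3l they were Uxt (0.993), Ttyh1 (0.992) and Ndufa9 (0.990), and for Dnmt3b Spata13 (0.992), Hacd1 (0.975) and Egln3 (0.972). Dnmt3a had Krtcap3 (0.976), Atp10a (0.975) and Mlf1 (0.970), and Dnmt1 had Ldhc (0.978), Akr1c21 (0.978) and Tm2d1 (0.978). The closest to Zfp57 were Khdc3 (0.988), Epb41l4b (0.983) and Gm15698 (0.982), to Trim28 Mboat7 (0.982), Rcor2 (0.974) and U2af1 (0.973), and to Uhrf1 Tprn (0.964), Esyt1 (0.959) and Hibadh (0.957). Among the members themselves the highest value was 0.869, between Dnmt1 and Zfp57.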

How the data were processed

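Total RNA of 8 libraries was sequenced with a stranded paired-end kit, per the labels' protocols. The authors quantified transcripts with kallisto 0.43 on mm10, per the submitters' processing notes, and deposited estimated counts and TPM for each of 117667 transcripts. The annotation release and the use of strand are not given in the sources used here. Transcripts were summed by Ensembl gene ID, members were picked by the gene symbol field, and estimated counts were rounded.

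Genes kept by filterByExpr (25045) were tested with edgeR 4.0.16 (robust quasi-likelihood, TMM, 4 groups in 1 fit, residual degrees of freedom 4) in R 4.3.3. The standard error is the log2 fold change divided by the root of F, an approximation. Transcript usage was tested with diffSpliceDGE. Alternatives used DESeq2 1.42.0 and limma 3.58.1. Both tests were tested on simulated data, where the usage test recovered few changes at the fitted spread and made more false calls than its threshold implies. Transcripts were matched by ID to GENCODE M21 (92 of 92, 89 of the same length). Promoter windows are RefSeq, GRCm38.p6. Named transcripts held at least 10% of their gene in a group mean and 1 TPM. From each list, up to 3 called genes per direction were eligible to be named, and some that met the rules are not reported here. The members, lists and rules were chosen with earlier results of these data known.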

Additional observations from a re-analysis of the deposited data

How the results depend on the processing

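Of 320 member fold changes refitted with 1 library left out, 291 kept direction and side of the threshold, 19 lost the call, 7 gained one and 3 reversed. Of 400 under other settings, 345 kept both, 13 lost the call, 28 gained one and 14 reversed. Reversals were Uhrf1 in MII against GV (-0.4464, -0.4476 and -0.4459 with log2(TPM + 1), log2(TPM + 0.1) and TPM over nuclear protein-coding transcripts), Trim28 in MII against EpiC (-0.7105, -0.7115 and -0.8607 with the same), Dnmt3l in EpiC against ESC (0.00608, 0.00674 and 0.0976 with the same, -0.629 to 0.767 over all left-out libraries), and Dnmt3a in MII against EpiC (-2.417, -2.484 and -2.575 with the same, -1.144 with the length offset, -0.0902 with the compared groups alone, -0.204 to 0.857 over all left-out libraries). The cause was not tested.

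Of 10 genes, 3 were called between ESC and EpiC, against 6 with no count filter, 5 with protein-coding transcripts only and 5 with DESeq2. All genes called there numbered 1367, against 2580 with no count filter, 2776 and 2406 with limma on log2(TPM + 1) and log2(TPM + 0.1), and 2953 with DESeq2. Usage calls were 6 rather than 3 in MII against GV and 4 rather than 0 in EpiC against ESC with limma's diffSplice. Of all 11953 genes it called 4809 and 679 in these comparisons, against 660 and 11 with edgeR. Leaving out 1 library gave 4 to 6 members called in MII against GV (without GV replicate 1, 4), 2 to 4 in EpiC against ESC, 7 to 8 in GV against ESC and 5 to 8 in MII against EpiC (without MII replicate 1, 5). All genes called ranged from 350 (without ESC replicate 1) to 1187 in EpiC against ESC, from 7071 to 10299 in MII against GV, from 11455 to 15376 in GV against ESC and from 13770 to 16728 in MII against EpiC. Usage calls ranged from 1 to 3 in MII against GV, 0 to 0 in EpiC against ESC, 3 to 7 in GV against ESC and 6 to 8 in MII against EpiC.

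Libraries share only a replicate number. Deviations of same-numbered libraries correlated at 0.31 for GV and MII and 0.712 for ESC and EpiC, and at -0.0154 to 0.0143 otherwise. With the replicate block, members called became 7 in MII against GV (Dnmt1 added), 5 in EpiC against ESC (Dnmt3b and Tet1 added) and stayed 8 in the other comparisons, and all genes called in EpiC against ESC became 2025. Usage calls became 8 in GV against ESC and 7 in MII against EpiC.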
